A study of Caenorhabditis elegans with 15 samples.

Results

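The comparison set glp-1 worms fed hlh-30 RNAi against glp-1 worms fed the control RNAi labelled luc, with 3 libraries in each group out of 15 libraries in 5 groups in the series. Of the 42048 genes in the deposited table, 12494 had a mean of at least 1 RPKM (reads scaled by the counted length of the gene and the depth of the library) over these 6 libraries, and these were examined. All 6 libraries came from whole Caenorhabditis elegans of strain SHU47, labelled glp-1, on adult day 1, kept at 20 °C and fed HT115(DE3) bacteria carrying L4440 vectors. The submitters call the RNAi neuronal. TU3401, the strain of another group, is known to carry sid-1, the channel that imports double-stranded RNA, restored in neurons of a sid-1 mutant, so that feeding RNAi acts mainly there. The labels do not spell out the allele of glp-1 or the RNAi elements that SHU47 carries. Further SHU47 groups fed atg-2 or atg-18 RNAi, 3 libraries each, were used for direct contrasts, and TU3401 fed luc RNAi is set beside the results by its levels only. Because whole worms were sequenced, a change in neurons enters only as a share of the RNA of the animal, and fewer cells of a type cannot be told apart from less RNA per cell.

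HLH-30 is the worm counterpart of mammalian TFEB, a basic helix-loop-helix leucine zipper factor known to switch on genes for autophagy and lysosomes. Worms without a germline, such as glp-1 mutants, live long, and HLH-30 is among the factors they need for it, as are MML-1 and MXL-2, the worm Mondo and Mlx proteins. ATG-2 and ATG-18 act in autophagy itself, at the growing autophagosome membrane.

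The 6 libraries held 17496624 to 25367730 reads, recovered from the steps of the RPKM values. Markers of the other cell types a whole worm holds were summed per library. The 22 neuron markers, all of them tested, summed to 1250 to 1419 RPKM with luc and 1246 to 1384 RPKM with hlh-30 RNAi, with a median log2 difference of 0.02. Sums also overlapped between the groups for the muscle list (13950 to 16980 RPKM against 14990 to 17720 RPKM) and the intestine list (37110 to 41160 RPKM against 37600 to 40960 RPKM). Germline and oocyte genes summed to 176, 30.9 and 34.8 RPKM in luc libraries 1, 2 and 3 and to 281, 29.1 and 33.2 RPKM in the labelled hlh-30 RNAi libraries, against 17120 to 17640 RPKM in TU3401. With atg-2 RNAi, libraries 1, 2 and 3 had 428, 30.98 and 34.8 RPKM, and with atg-18 RNAi 35.1, 32.6 and 34.5 RPKM. Library 1 thus stood above its group in all but atg-18 RNAi, and counts are also given without the 2 libraries numbered 1. Separate cultures are not mentioned in the labels, and a p-value here describes the spread between libraries alone, which may be technical.

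The targeted gene was read first, since it checks the labels. The hlh-30 level was 54.6, 44.5 and 50.9 RPKM with luc and 126, 292 and 328 RPKM in the libraries labelled hlh-30 RNAi, so that each of the latter lay above each control. Library 1 had the smallest excess of the 3. Mean levels were 50.0 ± 5.08 RPKM and 249 ± 108 RPKM (SD, n = 3), and the log2 difference of 2.18 ± 0.34 (SE) missed the threshold in limma, which was a Benjamini-Hochberg adjusted p under 0.05 over all genes tested (adjusted p = 0.107). With atg-2 RNAi the level was 53.1, 45.7 and 55.4 RPKM and with atg-18 RNAi 55.2, 41.8 and 50.2 RPKM, both close to luc, and TU3401 had a mean of 23.2 RPKM. In a limma fit of the 12 glp-1 libraries the labelled hlh-30 RNAi libraries were higher than atg-2 RNAi (adjusted p = 0.00645) and atg-18 RNAi (adjusted p = 0.00511). The target was therefore not lower in whole-worm RNA, and every direction below belongs to the libraries by their label. A count per gene cannot tell transcripts of the worm's own gene from the double-stranded RNA it is fed. The same reading of the other targets gave 43.1, 39.4 and 38.0 RPKM for atg-2 with atg-2 RNAi against 34.7, 26.6 and 28.9 RPKM with luc, and 49.1, 81.3 and 116 RPKM for atg-18 with atg-18 RNAi against 78.5, 68.8 and 70.1 RPKM with luc. In neither case were all the RNAi libraries below the luc libraries.

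Across the transcriptome few genes differed beyond the spread of the libraries. limma called 11 of 12494 genes, which is 0.088%, of which 10 fell and 1 rose, while 479 genes were higher and 708 lower at an unadjusted p under 0.05. The 3 libraries of 1 group lay wholly above those of the other more often: 784 genes were higher in every labelled hlh-30 RNAi library (6.28%) and 1029 lower (8.24%). The authors' deposited table, at a false discovery rate under 0.05, lists 92 of the genes tested here (0.736%), of which limma called 9. Among the others it lists are hlh-30, dct-7, nlp-28, cpr-1, lys-4, lipl-1, lgg-1 and daf-2, which missed the threshold here. The calls of limma rested on few libraries, since 0 genes passed without library 2 or library 3 of hlh-30 RNAi or without luc library 3, with 1091, 780 and 1036 genes at an unadjusted p under 0.05. Without the libraries numbered 1, only hlh-30 itself passed, while the log2 differences of tts-1, dct-8, cpr-4, T24F1.5, Y105C5B.5 and grd-14 were -2.70, -3.45, -0.95, -0.91, -1.02 and 0.94.

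**Figure D1:**
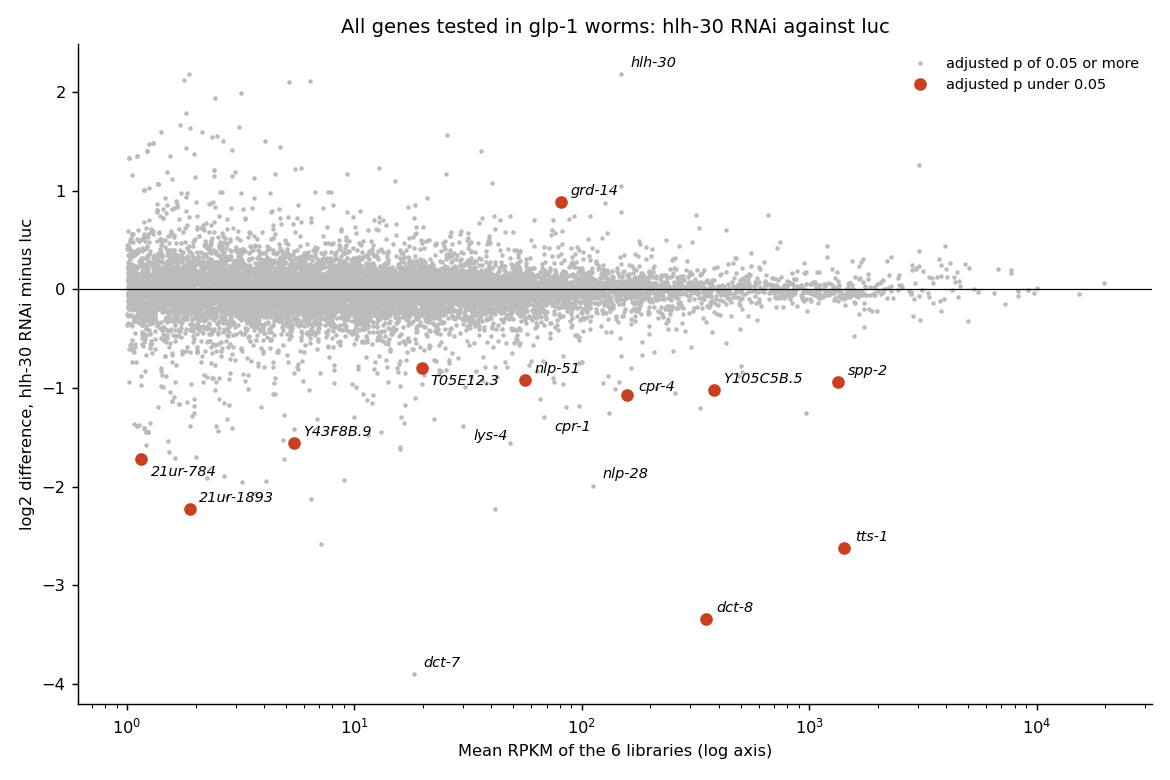
Each point is 1 of the 12494 genes, by its mean RPKM over the 6 libraries (log axis) and its log2 difference, hlh-30 RNAi minus luc. The 11 genes of adjusted p under 0.05 are red, 10 of them below 0, and hlh-30, dct-7, nlp-28, cpr-1 and lys-4 are named among the others.

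The most abundant gene to change was tts-1, a long noncoding RNA known to bind ribosomes and to be abundant in long-lived insulin receptor mutants. It stood at 2864, 2176 and 2270 RPKM with luc and at 512, 280.3 and 417 RPKM in the labelled hlh-30 RNAi libraries. The groups lay far apart, and the mean fell 6.05-fold (log2 difference -2.62 ± 0.22 (SE), limma adjusted p = 0.0182). TU3401 worms, which have a germline, had a mean of 194 RPKM, so the level with hlh-30 RNAi lay between theirs and that of the glp-1 control. With atg-2 RNAi the level was 3081, 1969 and 2467 RPKM and with atg-18 RNAi 3507, 2025 and 2769 RPKM, and the labelled hlh-30 RNAi libraries were below both (adjusted p = 0.00119 and 0.000522).

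A gene named dct-8, for its control by the FOXO factor DAF-16, followed the same order. Its level was 781, 436 and 698 RPKM with luc and 87.7, 37.8 and 64.8 RPKM in the labelled hlh-30 RNAi libraries, which fell 10.1-fold (log2 difference -3.35 ± 0.33 (SE), limma adjusted p = 0.0354). The spread within each group was wide, but the lowest control was still well above the highest RNAi library. TU3401 had a mean of 17.4 RPKM. Its namesake dct-7 had 68.4, 11.7 and 26.9 RPKM with luc and 1.13, 0.473 and 1.36 RPKM with hlh-30 RNAi. Those groups did not overlap either, but luc library 1 was far above the other controls, and the difference missed the threshold (limma adjusted p = 0.0898). Against atg-2 RNAi, at 58.7, 18.8 and 38.9 RPKM, and atg-18 RNAi, at 49.0, 12.03 and 24.5 RPKM, the dct-7 level was lower (adjusted p = 0.0123 and 0.0242). Of the 18 tested genes named dct or dod, 1 was called, against 0.088% of all genes, and 3 were lower in every labelled hlh-30 RNAi library (16.67% against 8.24% of all genes), and the median log2 difference was -0.06 against -0.01 for all genes.

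**Figure D2:**
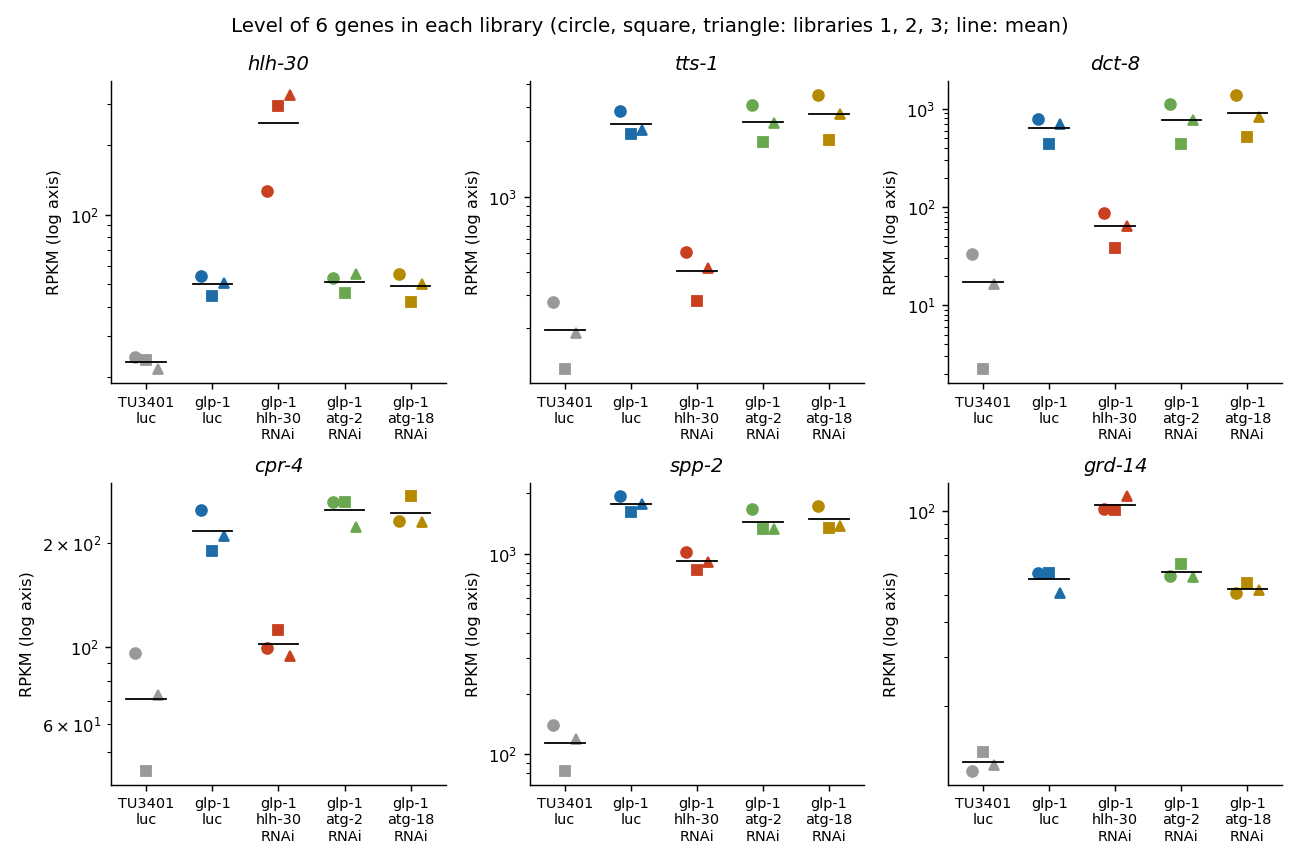
RPKM on a log axis for hlh-30, tts-1, dct-8, cpr-4, spp-2 and grd-14 in each library of the 5 groups, with the group mean as a line. In the hlh-30 RNAi group hlh-30 and grd-14 sit above the 3 other glp-1 groups, and tts-1, dct-8, cpr-4 and spp-2 below them.

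The genes whose levels went most alike with tts-1 were found by Pearson's r of log2(RPKM + 1) over the 12 glp-1 libraries. Since tts-1 is low in the hlh-30 RNAi libraries among these, a low level there is part of the choice, and no test of it is given for genes found this way alone. They were dct-8 (r = 0.993), R02F2.1 (0.975), Y105C5B.5 (0.973), F11E6.11 (0.971) and C35C5.9 (0.970). For dct-8 the nearest after tts-1 were F11E6.11 (r = 0.985), T24F1.5 (0.984), C35C5.9 (0.983) and R02F2.1 (0.981). Y105C5B.5, which was also called against luc over all genes, stood at 547, 497 and 488 RPKM with luc and fell to 267, 243 and 243 RPKM, with tight replicates (log2 difference -1.02 ± 0.069 (SE), limma adjusted p = 0.0179). It was also below atg-2 RNAi (adjusted p = 8.38e-06) and atg-18 RNAi (adjusted p = 3.77e-05), where it averaged 587 and 524 RPKM. F11E6.11 had 14.3, 11.7 and 13.6 RPKM with luc and 6.57, 5.41 and 6.88 RPKM with hlh-30 RNAi, and means of 15.7 and 15.1 RPKM with atg-2 and atg-18 RNAi. The log2 differences of C35C5.9 and R02F2.1 from luc were -0.95 and -0.32.

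Lysosomal proteases, the cathepsins that digest proteins in the lysosome, are among the known kinds of TFEB target. Of 27 tested members 1 was called, against 0.088% of all genes. In every labelled hlh-30 RNAi library 13 were lower (48.15% against 8.24% of all genes) and 4 were higher (14.81% against 6.28%). Their median log2 difference was -0.13. The called member was cpr-4, a cathepsin B-like protease, at 249, 189 and 209 RPKM with luc and 99.4, 112 and 94.3 RPKM with hlh-30 RNAi. It fell 2.12-fold, with no overlap of the groups (log2 difference -1.07 ± 0.11 (SE), limma adjusted p = 0.0378). Another cathepsin B-like gene, cpr-1, had 151, 158 and 253 RPKM with luc and 73.1, 72.2 and 82.2 RPKM with hlh-30 RNAi. Luc library 3 was far above the other controls, and the log2 difference of -1.25 missed the threshold (limma adjusted p = 0.105). The cathepsin Z gene cpz-1 had 542, 552 and 604 RPKM against 416, 438 and 424 RPKM (log2 difference -0.41, limma adjusted p = 0.0898).

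These 3 cathepsins were also below the atg-2 and atg-18 RNAi groups. For cpr-4 those groups had means of 249 and 244 RPKM (limma adjusted p = 0.00103 and 0.000522). For cpr-1 the means were 215 and 246 RPKM (limma adjusted p = 0.00245 and 0.000766). The cpz-1 means were 599 and 632 RPKM (limma adjusted p = 0.0021 and 0.000542). The cathepsin L gene cpl-1 had 2115, 2097 and 2212 RPKM with luc and 1705, 1890 and 1944 RPKM with hlh-30 RNAi, a small difference. It was below atg-18 RNAi (limma adjusted p = 0.0197). Against atg-2 RNAi it missed the threshold. It passed there in 3 of 10 alternative fits, among them the fit with library numbers as a block (limma adjusted p = 0.0032), and in 0 of 6 with a library left out. Not all members went this way. The aspartyl protease gene asp-10 had 543, 550.3 and 805 RPKM with luc and 297, 381 and 425 RPKM with hlh-30 RNAi, but also only 264, 523 and 521 RPKM with atg-2 RNAi and 312, 511 and 610.4 RPKM with atg-18 RNAi, so that these groups overlapped the hlh-30 RNAi group. asp-14 was higher in the labelled hlh-30 RNAi libraries, at 487, 549 and 529.5 RPKM against 372, 453 and 431 RPKM with luc (limma adjusted p = 0.359). It passed as higher than atg-18 RNAi (limma adjusted p = 0.0484) and missed the threshold against atg-2 RNAi (0.0962).

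**Figure D3:**
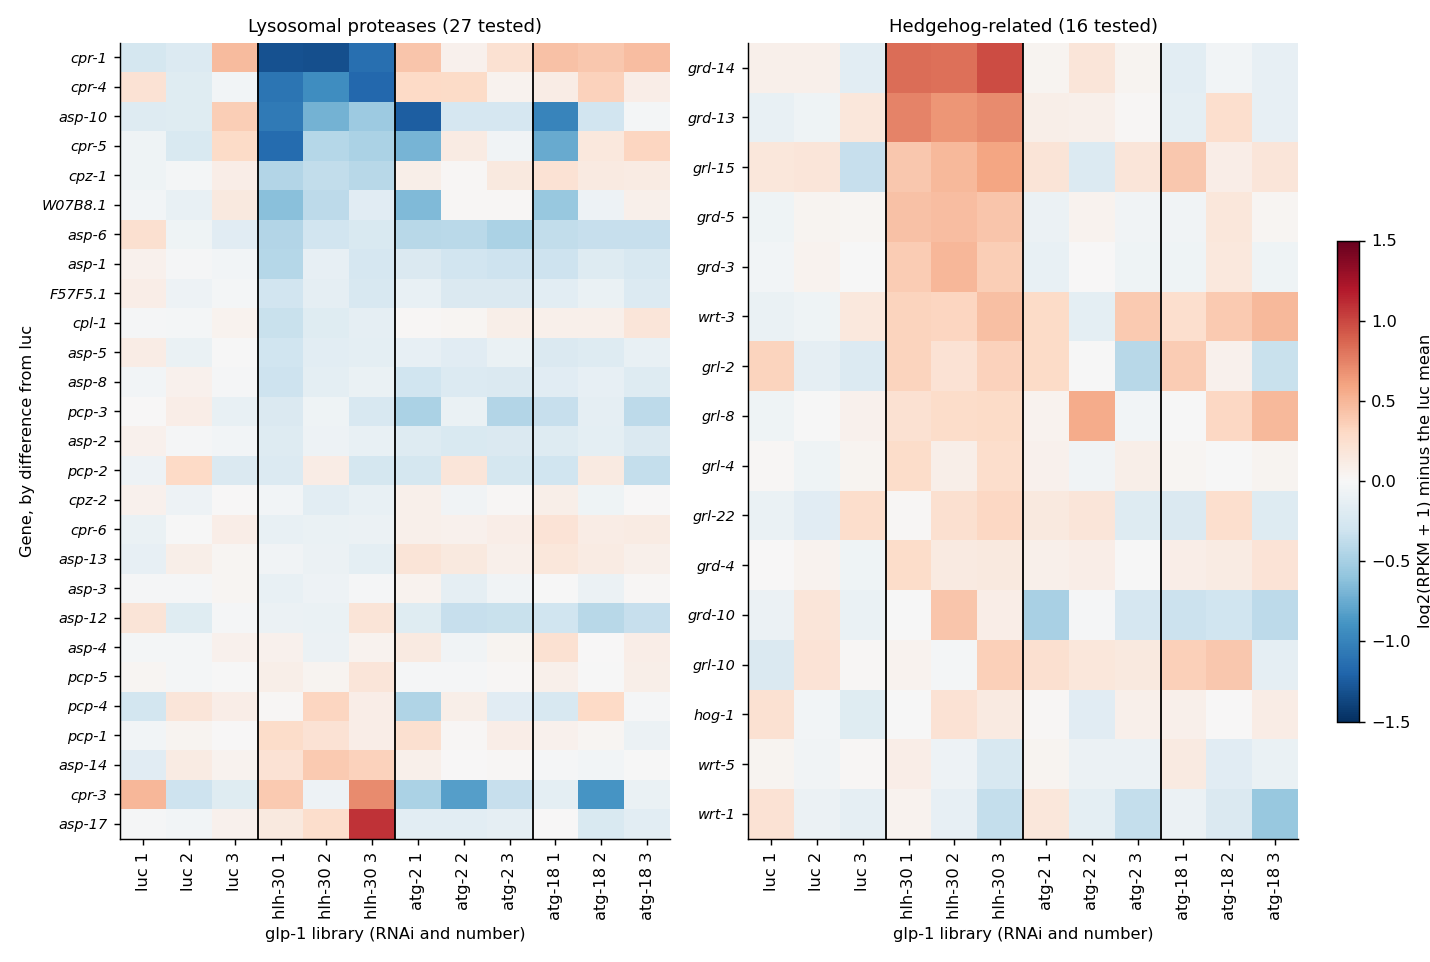
Log2(RPKM + 1) minus the mean of the luc libraries, for the 27 tested lysosomal proteases and the 16 tested hedgehog-related genes (rows) in the 12 glp-1 libraries (columns), with blue lower and red higher. For cpr-1, cpr-4, cpz-1, grd-14, grd-13, grd-5 and grd-3 the shift appears in the 3 hlh-30 RNAi columns, whereas asp-10 and asp-6 are also below luc with atg-2 and atg-18 RNAi.

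Enzymes that break down lipids, sugars and nucleic acids in the lysosome gave no call among 35 tested, with 3 higher and 6 lower at an unadjusted p under 0.05 and a median log2 difference of 0.003. Groups were apart on the higher side for 4 (11.43% against 6.28% of all genes) and on the lower side for 6 (17.14% against 8.24%). The acid lipase gene lipl-1, known to be raised by fasting, had 24.1, 26.3 and 29.1 RPKM with luc and 11.7, 15.99 and 14.6 RPKM with hlh-30 RNAi. The groups did not overlap, the difference from luc missed the threshold (log2 difference -0.87, limma adjusted p = 0.0898), and the level was below atg-2 and atg-18 RNAi (adjusted p = 0.00119 and 0.00128). The related lipase gene lipl-3, known for the same response, had 10.6, 10.8 and 9.99 RPKM with luc and 7.01, 9.77 and 7.01 RPKM with hlh-30 RNAi (limma adjusted p = 0.48), close to the 8.63 and 9.32 RPKM of the other RNAi groups. nuc-1, which encodes the lysosomal DNase II, had 296, 305 and 313 RPKM with luc and 254, 261 and 250.0 RPKM with hlh-30 RNAi (limma adjusted p = 0.198). It was lower than in the atg-2 and atg-18 RNAi groups (adjusted p = 0.00589 and 0.00337). Opposite in sign was gba-2, a glucocerebrosidase gene, at 1.15, 1.75 and 2.46 RPKM with luc and 5.18, 4.07 and 2.65 RPKM with hlh-30 RNAi, but means of 5.37 and 4.28 RPKM with atg-2 and atg-18 RNAi put it at a like level in all 3.

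The proton pump that acidifies the lysosome, the V-ATPase, differed little: all 21 tested subunit genes had log2 differences of -0.04 to 0.06, 0 of them were called and 0 passed an unadjusted p under 0.05 in limma. An example is vha-11, at 209, 209 and 206 RPKM with luc and 218, 217 and 213 RPKM with hlh-30 RNAi. Lysosomal membrane and transport genes gave 0 calls among 21 in limma, with 3 lower at an unadjusted p under 0.05, and a median log2 difference of -0.11. In every labelled hlh-30 RNAi library 4 of these genes were lower (19.05% against 8.24% of all genes) and 0 were higher. Among them were scav-3, a relative of mammalian LIMP-2, at 66.4, 63.0 and 61.2 RPKM against 54.5, 48.9 and 53.2 RPKM (limma adjusted p = 0.303), and lmp-1, a LAMP-like protein gene, at 369, 336 and 372 RPKM against 325, 304 and 311 RPKM.

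Among 34 tested autophagy genes limma called 0, with 9 lower and 0 higher at an unadjusted p under 0.05. The labelled hlh-30 RNAi libraries were all lower for 10 of them (29.41% against 8.24% of all genes) and all higher for 1, and the median log2 difference was -0.11. lgg-1, the worm GABARAP that is attached to autophagosome membranes, had 1959, 1765 and 1737 RPKM with luc and 1366, 1229 and 1341 RPKM with hlh-30 RNAi. The groups were apart by a log2 difference of -0.47 ± 0.068 (SE), which missed the threshold (limma adjusted p = 0.0898) and passed it against atg-2 RNAi (adjusted p = 0.0481) and atg-18 RNAi (adjusted p = 0.0321). The LC3-like lgg-2 had 281, 240.4 and 263 RPKM and 219.8, 196 and 201 RPKM, with no overlap (limma adjusted p = 0.247). Also named after their values were seen were 3 genes of earlier steps. atg-13, a gene of the initiation complex, had 19.7, 17.01 and 14.5 RPKM with luc against 12.7, 11.3 and 12.3 RPKM, and epg-9, the worm ATG101, had 61.4, 46.9 and 49.7 RPKM against 42.1, 37.5 and 33.4 RPKM (limma adjusted p = 0.31 and 0.35). atg-9, whose protein is a membrane-spanning lipid scramblase, had 26.9, 25.01 and 25.2 RPKM against 21.9, 20.4 and 17.3 RPKM (limma adjusted p = 0.35). With atg-18 RNAi epg-9 averaged 41.7 RPKM, between the luc mean of 52.6 RPKM and the hlh-30 RNAi mean of 37.7 RPKM.

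**Figure D4:**
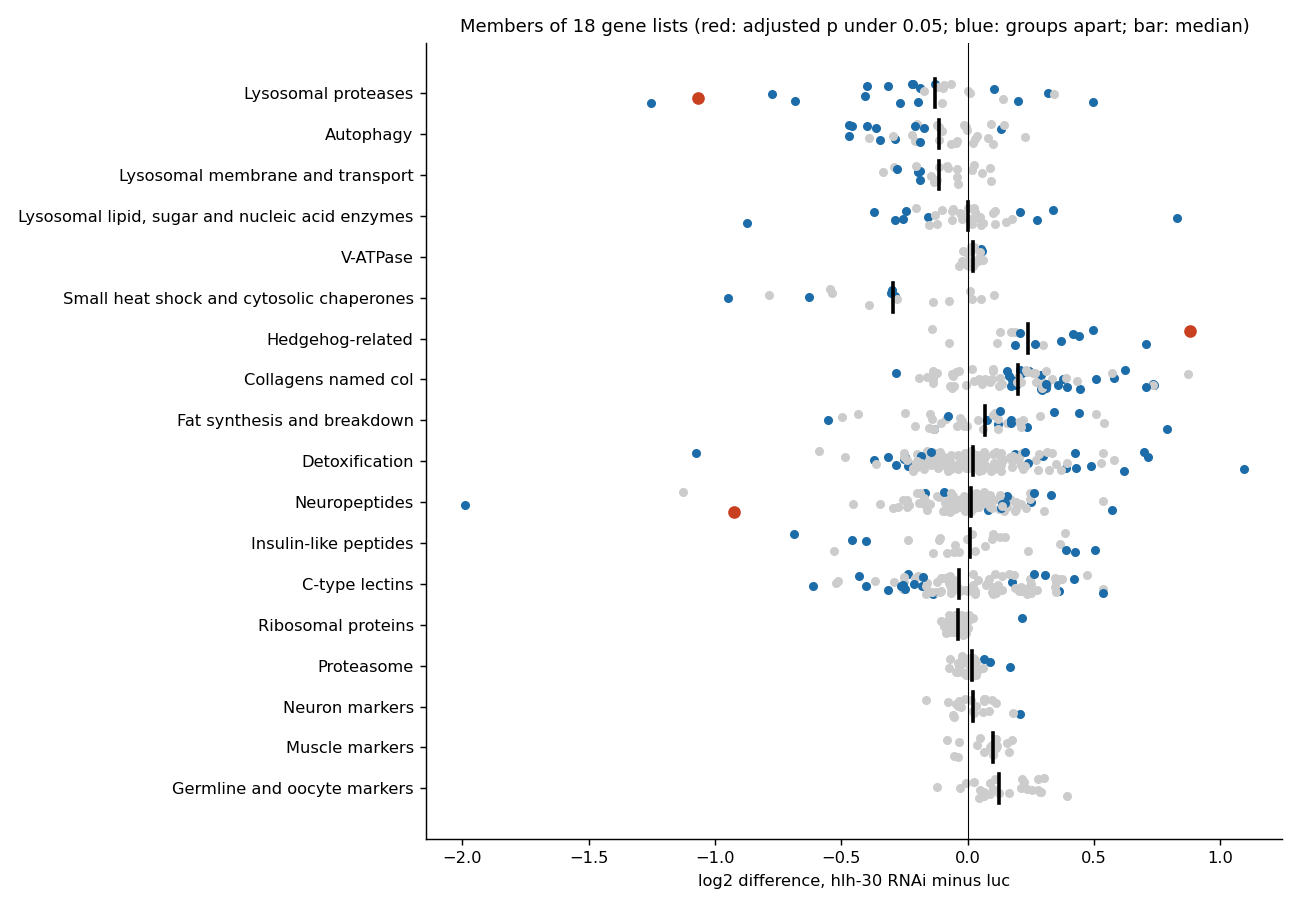
Log2 difference, hlh-30 RNAi minus luc, for each tested member of 18 gene lists, with the list median as a bar, called genes in red and genes whose groups did not overlap in blue. The V-ATPase members lie between -0.04 and 0.06, whereas the protease list runs from -1.25 to 0.50 and the hedgehog-related list from -0.14 to 0.88.

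Partners and relatives of HLH-30 did not pass the threshold: the 5 tested beside hlh-30 itself all had differences below 0, and in 3 of them every labelled library was below luc, which held for 8.24% of all genes. mxl-2 had 19.1, 18.1 and 19.1 RPKM with luc and 11.99, 12.3 and 13.4 RPKM in the labelled hlh-30 RNAi libraries (log2 difference -0.55 ± 0.075 (SE), limma adjusted p = 0.0819). Its partner mml-1 had 12.2, 9.91 and 8.6 RPKM and 9.09, 8.07 and 7.83 RPKM, with overlapping groups (limma adjusted p = 0.593). Values were also looked up, after they were seen, for mdl-1, a Mad-like repressor gene, at 145, 112 and 114 RPKM against 86.4, 65.2 and 69.3 RPKM, and for mxl-3, whose protein is known to act against HLH-30 on lipase genes, at 151, 78.2 and 99.4 RPKM against 75.7, 40.1 and 50.6 RPKM. Both had groups that did not overlap and missed the threshold (limma adjusted p = 0.165 and 0.42), and both are listed in the authors' deposited table with a false discovery rate of 0.00235 and 0.0457. In TU3401, mdl-1 and mxl-3 averaged 28.2 and 20.8 RPKM. With atg-2 RNAi they averaged 123.5 and 111.7 RPKM, and with atg-18 RNAi 101.1 and 70.3 RPKM. For mxl-3 the atg-18 RNAi libraries, at 103.9, 51.1 and 56.0 RPKM, overlapped the hlh-30 RNAi group. Neither gene passed against atg-2 RNAi (limma adjusted p = 0.139 and 0.201) or atg-18 RNAi (0.521 and 0.888).

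Hedgehog-related genes were on the higher side. These encode secreted proteins of the warthog, groundhog and ground-like families, which in C. elegans are known mainly from the epidermis and the moult. The table held 59, of which 16 were tested and 1 was called, against 0.088% of all genes. In every labelled hlh-30 RNAi library 9 were higher (56.25% against 6.28% of all genes) and 0 were lower. The median log2 difference was 0.24, and 0.02 where all members with any reads were kept. The groundhog gene grd-14 was the only gene of the transcriptome called higher against luc, at 60.1, 60.0 and 50.8 RPKM with luc and 102, 102 and 113 RPKM with hlh-30 RNAi. It rose 1.85-fold (log2 difference 0.88 ± 0.088 (SE), limma adjusted p = 0.0354). With atg-2 and atg-18 RNAi it averaged 60.6 and 52.7 RPKM, and both were below the labelled hlh-30 RNAi libraries (adjusted p = 0.00139 and 0.000297).

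Further members with groups apart were grd-13 and, named after their values were seen, grd-5 and grd-3. grd-13 had 43.3, 44.7 and 52.7 RPKM with luc and 79.1, 74.3 and 77.3 RPKM with hlh-30 RNAi, and missed the threshold (limma adjusted p = 0.0645). grd-5 had 968, 1043 and 1032 RPKM against 1377, 1402 and 1353 RPKM, with little spread between replicates (limma adjusted p = 0.0507). For grd-3 the levels were 603, 640.5 and 617 RPKM against 810.5, 874 and 803 RPKM (limma adjusted p = 0.0736). In all 3 the groups did not overlap, and the level was above atg-2 RNAi (limma adjusted p = 0.0179, 0.00598 and 0.00828) and atg-18 RNAi (0.0122, 0.0161 and 0.0197). The sums of the hypodermis markers, 1171 to 1547 RPKM with luc and 1151 to 1456 RPKM with hlh-30 RNAi, overlapped.

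Cuticle collagens named col, products of the epidermis, gave 0 calls among 72 tested, with 23 higher and 1 lower at an unadjusted p under 0.05 in limma. In 23 of them (31.94% against 6.28% of all genes) every labelled hlh-30 RNAi library was above every control, and in 1 below. Their median log2 difference was 0.20 with the low-value filter and 0.06 without it. col-98 had 2472, 2821 and 2616 RPKM with luc and 3297, 3694 and 3381 RPKM with hlh-30 RNAi (limma adjusted p = 0.144). col-101 was among the most abundant, at 6293, 6300 and 6227 RPKM with luc and 7288, 7163 and 7273 RPKM with hlh-30 RNAi. That is a small shift with little spread (log2 difference 0.21 ± 0.038 (SE), limma adjusted p = 0.165), which passed against atg-2 and atg-18 RNAi (adjusted p = 0.0176 and 0.0246). Lower in every labelled library was col-34, at 11.3, 13.1 and 12.9 RPKM against 15.5, 16.2 and 14.3 RPKM with luc (limma adjusted p = 0.427).

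Secreted peptide genes gave a single call and no shift of the list. The median log2 difference of 107 tested neuropeptide genes was 0.01. The labelled hlh-30 RNAi libraries were all higher for 9 (8.411% against 6.28% of all genes) and all lower for 4 (3.738% against 8.24%). Of the 107, 1 was called, against 0.088% of all genes. This was T24F1.5, named nlp-51 in the current annotation, a neuropeptide-like gene at 77.9, 67.3 and 77.4 RPKM with luc and 39.6, 38.2 and 37.8 RPKM with hlh-30 RNAi. It fell 1.93-fold, with the RNAi libraries nearly equal (log2 difference -0.92 ± 0.077 (SE), limma adjusted p = 0.0182). With atg-2 and atg-18 RNAi it averaged 84.6 and 85.8 RPKM (limma adjusted p = 0.00731 and 0.00641). nlp-28, of a cluster of epidermal antimicrobial peptide genes, had 249, 102 and 195 RPKM with luc and 41.4, 36.6 and 49.4 RPKM with hlh-30 RNAi. Its controls spread widely and the difference missed the threshold (log2 difference -1.99, limma adjusted p = 0.107), while against atg-2 and atg-18 RNAi it passed (adjusted p = 0.0112 and 0.0257). nlp-24 went the other way, at 119, 98.3 and 94.4 RPKM with luc and 142, 148 and 175 RPKM with hlh-30 RNAi (limma adjusted p = 0.183). It was above atg-2 and atg-18 RNAi (adjusted p = 0.0451 and 0.0143).

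Insulin-like peptide genes gave 0 calls among 26 in limma. At an unadjusted p under 0.05, 3 were higher and 2 lower, against 479 and 708 of all 12494 genes. The labelled hlh-30 RNAi libraries were all higher for 3 (11.54% against 6.28% of all genes) and all lower for 3 (11.54% against 8.24%). ins-7, known as an agonist of the insulin receptor DAF-2, had 75.5, 68.2 and 57.7 RPKM with luc and 94.0, 86.5 and 89.7 RPKM with hlh-30 RNAi (limma adjusted p = 0.277). ins-19 had 29.0, 30.1 and 26.3 RPKM against 22.5, 19.5 and 22.1 RPKM (limma adjusted p = 0.228). For daf-2 itself, looked up after its values were seen, the levels were 13.3, 11.8 and 12.2 RPKM against 9.65, 9.12 and 8.83 RPKM (limma adjusted p = 0.19). The groups did not overlap for ins-7, ins-19 or daf-2. Against atg-2 and atg-18 RNAi, ins-7 missed and passed (limma adjusted p = 0.0991 and 0.0321), and ins-19 missed both (0.0909 and 0.163). ins-10, picked after its values were seen, was not called against luc (log2 difference -0.69). It was below atg-2 and atg-18 RNAi (limma adjusted p = 0.042 and 0.0372).

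Defence genes lay on both sides. spp-2, a saposin-like gene of a family known for pore-forming antimicrobial proteins, had 1927, 1603 and 1771 RPKM with luc and 1016, 827 and 912 RPKM with hlh-30 RNAi. It fell 1.92-fold (log2 difference -0.94 ± 0.096 (SE), limma adjusted p = 0.0354). The atg-2 and atg-18 RNAi groups lay between, at means of 1443 and 1482 RPKM, and hlh-30 RNAi was below both (adjusted p = 0.0366 and 0.0309). It was 1 called of 25 tested saposin-like genes, against 0.088% of all genes, and their median log2 difference was -0.06. The lysozyme gene lys-4 had 61.9, 34.1 and 36.5 RPKM with luc and 15.4, 16.2 and 15.4 RPKM with hlh-30 RNAi, with luc library 1 high (limma adjusted p = 0.105). Against atg-2 and atg-18 RNAi, at means of 26.4 and 33.6 RPKM, it missed the threshold (adjusted p = 0.187 and 0.0507) and passed with library numbers as a block (adjusted p = 0.0324 and 0.00707).

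Among 37 tested infection response and caenacin genes limma called 0, with 6 higher and 4 lower at an unadjusted p under 0.05. The labelled hlh-30 RNAi libraries were all higher for 7 (18.92% against 6.28% of all genes) and all lower for 4 (10.81% against 8.24%). F35E12.5, now irg-5, a gene known to be induced by bacterial infection, had 413, 311 and 311 RPKM with luc and 522, 539.8 and 492 RPKM with hlh-30 RNAi. It missed the threshold against luc (limma adjusted p = 0.181) and was higher than with atg-2 or atg-18 RNAi (adjusted p = 0.00335 and 0.0164). F35E12.9, with no name of its own, had 16.3, 14.6 and 13.2 RPKM with luc and 22.4, 21.7 and 22.4 RPKM with hlh-30 RNAi, and also passed in both direct contrasts (adjusted p = 0.00645 and 0.0026). F08G5.6, now irg-4, had 67.6, 86.4 and 144 RPKM with luc and 176, 189 and 226 RPKM with hlh-30 RNAi (limma adjusted p = 0.287). With atg-2 and atg-18 RNAi it averaged 162 and 166 RPKM, which is nearer to hlh-30 RNAi than to the luc mean of 99.2 RPKM. The 96 tested C-type lectin genes gave 0 calls in limma, 5 higher and 9 lower at an unadjusted p under 0.05. Groups were apart on the higher side for 6 of these (6.25% against 6.28% of all genes) and on the lower side for 13 (13.54% against 8.24%).

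Metabolic genes gave no call against luc. Of 40 tested genes of fat synthesis and breakdown, 5 were higher and 2 lower at an unadjusted p under 0.05 in limma. The labelled hlh-30 RNAi libraries were all higher for 9 (22.5% against 6.28% of all genes) and all lower for 3 (7.5% against 8.24%). far-3, for a protein that binds fatty acids and retinol, had 3230, 3335 and 3527 RPKM with luc and 5125, 4174 and 4436 RPKM with hlh-30 RNAi, while far-7 of the same family had 21.4, 21.3 and 17.6 RPKM and 13.3, 13.1 and 13.8 RPKM (limma adjusted p = 0.165 and 0.133). Of 136 tested detoxification genes 12 were higher and 4 lower at an unadjusted p under 0.05. Groups were apart on the higher side for 12 (8.824% against 6.28% of all genes) and on the lower side for 9 (6.618% against 8.24%). gst-20, a glutathione S-transferase gene, had 139, 146 and 158 RPKM with luc and 216, 198 and 209 RPKM with hlh-30 RNAi, and the cytochrome P450 gene cyp-37B1 had 20.9, 14.4 and 15.1 RPKM and 7.52, 8.73 and 6.01 RPKM (limma adjusted p = 0.0898 and 0.114). daao-1, which encodes D-amino acid oxidase and was picked after its values were seen, had 15.4, 20.0 and 21.1 RPKM with luc and 10.5, 10.2 and 7.37 RPKM with hlh-30 RNAi. It missed the threshold against luc (limma adjusted p = 0.144) and passed against atg-2 and atg-18 RNAi (adjusted p = 0.00505 and 0.00363).

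Of 16 tested cytosolic chaperones limma called 0, with 7 lower and 0 higher at an unadjusted p under 0.05, against 708 and 479 of all 12494 genes. The labelled hlh-30 RNAi libraries were all lower for 5 of them (31.25% against 8.24% of all genes) and all higher for 0, and the median log2 difference was -0.29. The small heat shock gene hsp-12.3 had 47.5, 48.3 and 51.2 RPKM with luc and 40.5, 38.1 and 40.2 RPKM with hlh-30 RNAi (limma adjusted p = 0.227), and was below atg-2 and atg-18 RNAi (adjusted p = 0.0268 and 0.0152). dnj-13 and hsp-1, an Hsp40 and a constitutive Hsp70 gene named after their values were seen, did not keep this order. dnj-13 had 58.9, 57.0 and 34.4 RPKM with luc and 32.5, 28.8 and 16.2 RPKM with hlh-30 RNAi, but a mean of 33.6 RPKM with atg-2 RNAi. hsp-1 had 335, 313 and 261 RPKM with luc, 254, 216 and 135 RPKM with hlh-30 RNAi and a mean of 252 RPKM with atg-2 RNAi. In both, library 3 was the lowest of its group.

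The remaining calls were genes with little known function. Y43F8B.9 had 9.58, 9.2 and 7.15 RPKM with luc and fell to 2.46, 2.07 and 2.21 RPKM (log2 difference -1.56 ± 0.13 (SE), limma adjusted p = 0.0182). It was below atg-2 RNAi, at 6.98, 5.8 and 8.23 RPKM (adjusted p = 0.0147), and missed the threshold against atg-18 RNAi, at 7.45, 3.7 and 4.42 RPKM (adjusted p = 0.0736). T05E12.3 had 24.4, 25.6 and 26.0 RPKM with luc and fell to 15.2, 14.7 and 12.6 RPKM, below atg-2 RNAi at 30.6 RPKM and atg-18 RNAi at 29.5 RPKM (limma adjusted p = 0.0408, 0.00103 and 0.000542). C34C6.7, now cup-16, narrowly missed the threshold at 32.3, 28.6 and 29.9 RPKM against 18.5, 14.8 and 17.2 RPKM (limma adjusted p = 0.0594) and passed in both direct contrasts (adjusted p = 0.0252 and 0.00511). The last 2 calls, the piRNA loci 21ur-1893 and 21ur-784, are listed at 0 in all 3 labelled hlh-30 RNAi libraries, and rest on at most 2 reads and 1 read in any luc library. Such loci of 21 bases pass the filter on a single read, and they were also at 0 in most atg-2 and atg-18 RNAi libraries, so no fold is given.

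Larger differences stood among genes that were not called, where libraries of a group differed most. Among those with a mean of at least 5 RPKM whose groups were apart, the 8 largest each way had log2 differences from -3.90 to -1.36 and from 0.99 to 2.18. F55H12.2 had 114, 36.8 and 56.4 RPKM with luc and 20.4, 7.42 and 12.5 RPKM with hlh-30 RNAi (limma adjusted p = 0.208). With atg-2 RNAi it had 74.4, 42.5 and 75.7 RPKM (limma adjusted p = 0.118). With atg-18 RNAi it had 71.4, 13.6 and 18.6 RPKM, which overlapped hlh-30 RNAi (limma adjusted p = 0.659). C54G6.8 had 3.47, 6.86 and 5.27 RPKM with luc and 8.53, 20.6 and 11.03 RPKM with hlh-30 RNAi, but 11.4, 18.2 and 14.6 RPKM with atg-18 RNAi (limma adjusted p against luc = 0.381). The acid phosphatase gene pho-8 had 6.39, 4.45 and 3.58 RPKM with luc and 9.2, 8.83 and 13.2 RPKM with hlh-30 RNAi. It was above atg-2 and atg-18 RNAi (adjusted p = 0.0105 and 0.0197), but not past the threshold against luc (0.228).

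Set directly against the other RNAi groups of the same strain, the labelled hlh-30 RNAi libraries differed in more genes. Against atg-2 RNAi limma called 126 of 12460 genes (1.01%), 72 higher and 54 lower, and 757 with library numbers as a block. Against atg-18 RNAi it called 127 (1.02%), 58 higher and 69 lower, and 506 with the block. These fits borrow the spread of 12 libraries, and in the same fit 58 genes were called against luc, 19 higher and 39 lower. The contrasts share the 3 labelled hlh-30 RNAi libraries, so they are not independent of each other or of the comparison with luc. Leaving out any 1 library gave 30 to 86 calls against atg-2 RNAi and 28 to 78 against atg-18 RNAi, the lowest without library 3 of the former and library 1 of the latter. Without all libraries numbered 1 the counts were 89 and 67.

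**Figure D5:**
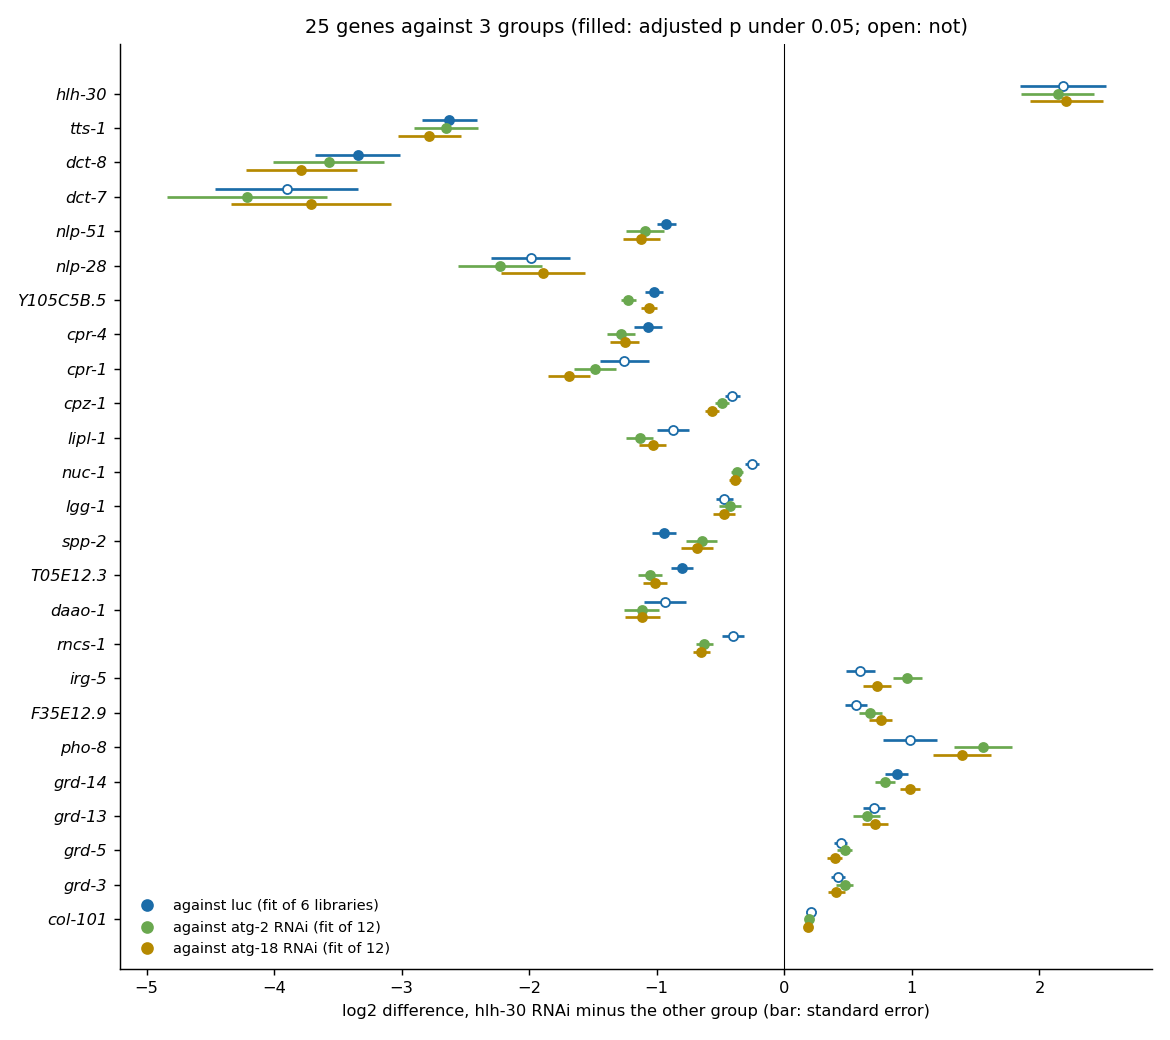
Log2 difference of the hlh-30 RNAi libraries from luc, atg-2 RNAi and atg-18 RNAi for 25 genes, with the standard error of limma as a bar, filled where the adjusted p was under 0.05. All 25 genes have the same sign in the 3 contrasts, which share the hlh-30 RNAi libraries, and 8 of them are filled against luc. All were called against both atg-2 and atg-18 RNAi, so their like sign there is part of the choice.

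Of 25 tested regulators of longevity without a germline 0 were called by limma, 0 higher and 2 lower at an unadjusted p under 0.05. The labelled hlh-30 RNAi libraries were all lower for 4 of them (16% against 8.24% of all genes) and all higher for 1 (4% against 6.28%), and the log2 differences ran from -0.94 to 0.51. The stress response factor gene skn-1 had 72.8, 65.3 and 54.3 RPKM with luc and 51.0, 49.8 and 49.2 RPKM with hlh-30 RNAi, with groups apart (log2 difference -0.34, limma adjusted p = 0.427), and means of 54.7 and 50.1 RPKM with atg-2 and atg-18 RNAi. kri-1, the worm relative of human KRIT1, had 4.61, 3.63 and 2.34 RPKM and 2.1, 1.62 and 0.519 RPKM, again with groups apart (limma adjusted p = 0.45). Library 3 was the lowest of both groups for kri-1. lbp-8, which encodes a lysosomal lipid-binding protein, had 11, 8.63 and 13.6 RPKM and 20.8, 10.8 and 17.8 RPKM, with overlapping groups (log2 difference 0.51, limma adjusted p = 0.582). The FOXO gene daf-16 had 43.4, 42.3 and 50.7 RPKM with luc and 46.1, 37.4 and 46.5 RPKM with hlh-30 RNAi, and the FOXA gene pha-4 9.89, 5.75 and 7.7 RPKM and 7.72, 6.37 and 10.7 RPKM, both with overlapping groups. Levels of glp-1, the Notch receptor gene of the strain's name, were 3.37, 2.52 and 2.98 RPKM and 4.15, 2.53 and 2.57 RPKM, against a TU3401 mean of 69.6 RPKM. sid-1 had 178, 154 and 150.0 RPKM and 164, 151 and 156 RPKM. The 78 ribosomal protein genes had log2 differences of -0.11 to 0.21 and the 33 proteasome genes of -0.08 to 0.17, with 0 calls in limma and, at an unadjusted p under 0.05, 0 and 1.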

How the data were processed

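Whole-worm RNA was sequenced in 15 libraries; 6 of them, 3 per group, carry the comparison and the 12 glp-1 libraries the direct contrasts. The authors deposited RPKM per gene and library and, per the file headers, log2 fold changes, unadjusted p-values with false discovery rates, and a score that ranks the genes; no source says which test. Tools named in the submitters' processing notes are TopHat2 2.1.1 and bcl2fastq, with GRCh38, a human build, so no coordinates are printed. The counting tool, and whether it used strand, are not stated. Within a library RPKM were whole multiples of a step for 100.0% of 24620 detected genes (relative tolerance 1e-06), and for 84.7% of 18731 protein-coding genes the length in that step was the coding length, so levels rest on coding sequence. At 21 bases 1 read is about 2 RPKM. Intervals of counting error are not given, since spread between libraries was used. Current names came from the WBcel235 annotation (41152 of 42048 names matched).

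The test was limma (3.58.1, under R 4.3.3) on log2(RPKM + 1), with its prior variance following the mean level, over genes whose mean RPKM reached 1 in the libraries fitted, two-sided, with Benjamini-Hochberg adjusted p under 0.05; fold changes on this scale are understated for low genes. An exact permutation test of 3 against 3 libraries cannot go below p = 0.1. On simulated data 89 of 100 genes changed by a log2 of 1 and 96 of 100 changed by a log2 of 2 were recovered, with 16 false calls. The changed genes were drawn only from those above about 5 RPKM, and normal noise was drawn independently for each gene. Far more genes were changed than the 11 called in the data, which eases the adjusted threshold. These shares therefore do not give the power of the comparison with luc. The share of true changes recovered from the libraries themselves was not tested. Against luc, 155 genes had a log2 difference of at least 1 either way, and 11 genes with a difference of any size were called. Pairing by library number was checked with the correlation, across genes, of each library's deviations from its group mean: same-numbered hlh-30 and atg-2 RNAi libraries gave 0.504, 0.272 and 0.291, and hlh-30 and atg-18 RNAi libraries 0.208, 0.239 and 0.216, so blocked values stand beside those contrasts. The members and the 33 gene lists were chosen with earlier results of these data known. The rule for named genes took 9 genes of the pathway, all called genes, the 8 largest differences each way among uncalled genes of mean RPKM of at least 5 with groups apart, the member of smallest p each way of each list, the 10 smallest false discovery rates each way in the authors' deposited table and the 5 genes most like tts-1 and dct-8; it gave 103 genes, of which those that show a group are described. Chosen after their values were seen were asp-6, asp-10, atg-9, atg-13, col-101, cpl-1, cpr-1, cpz-1, daao-1, daf-2, dnj-13, dod-21, epg-9, grd-3, grd-5, hsp-1, ins-10, kri-1, lgg-2, lipl-3, lmp-1, mdl-1, mxl-3, nuc-1 and rncs-1. Alternatives varied pseudocount, filter, scaling, fit and libraries. Tables and plots were made in Python 3.11.15 (numpy 2.4.6, pandas 2.3.3, matplotlib 3.10.9).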

Additional observations from a re-analysis of the deposited data

How the results depend on the processing

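Against luc, 11 genes were called. Counts stayed within 1.5 times of that under 10 of 19 alternatives (9 to 14 calls). They were 2 with no filter on low values, 4 without the mean-variance trend, 58 in the fit over 12 glp-1 libraries, 46 with the replicate block, 0 to 11 with 1 library left out and 1 without both libraries numbered 1, an alternative chosen after seeing the data. Whether library numbers pair hlh-30 RNAi with luc was not settled. Same-numbered libraries gave r of 0.358, 0.241 and 0.069. Other pairs gave -0.281 to 0.074, the highest for hlh-30 RNAi library 3 with luc library 2. The main test against luc leaves such pairing out, so a gene that missed its threshold may pass with the block. Called members of the gene lists numbered 6, and 0 with no filter on low values or without the trend, 25 in the fit over 12 libraries, 16 with the replicate block, 0 to 7 with 1 library left out and 1 without both libraries numbered 1. Calls against atg-2 RNAi were 126, 757 with the replicate block and 30 to 86 with 1 library left out. Calls against atg-18 RNAi were 127, 506 with the block, 28 to 78 with 1 library left out and 67 without the libraries numbered 1. The cause of these shifts was not tested, beyond the number of genes and libraries each fit held. Among 3350 single values recomputed, 10 changed sign, all of them near 0: with 1 library left out, glp-1 ranged from -0.151 to 0.121, sid-1 from -0.078 to 0.043, daf-16 from -0.125 to 0.029 and pha-4 from -0.104 to 0.248; without both libraries numbered 1, glp-1 was at -0.076 and sid-1 at 0.01, and with sample quality weights sid-1 was at 0.006. The adjusted p of tts-1 ranged from 0.00196 to 0.0988 and that of grd-14 from 0.00142 to 0.153 over 19 alternatives. Genes of few reads are limited by depth.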

Other observations

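Some genes stood apart from atg-2 or atg-18 RNAi without passing the threshold against luc. dod-21, an infection and DAF-16 responsive gene picked after its values were seen, had 254, 231 and 291 RPKM in the libraries labelled hlh-30 RNAi and 386, 137 and 113 RPKM with luc, with overlapping groups. It had 53.5, 44.9 and 38.7 RPKM with atg-2 RNAi and 73.8, 44.1 and 51.5 RPKM with atg-18 RNAi, and the labelled hlh-30 RNAi libraries were above both (limma adjusted p = 0.0125 and 0.0242). dod-24 of the same kind had 522, 423 and 479.5 RPKM with hlh-30 RNAi, 539.8, 356 and 322 RPKM with luc, 281, 244 and 236 RPKM with atg-2 RNAi and 321, 236 and 242 RPKM with atg-18 RNAi. It passed against atg-2 RNAi (limma adjusted p = 0.0446) and missed the threshold against atg-18 RNAi (adjusted p = 0.0586). With library numbers as a block it passed against atg-18 RNAi (limma adjusted p = 0.00241).

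The noncoding RNA rncs-1, known as an inhibitor of Dicer that rises in starved worms, also picked after its values were seen, was low in the labelled hlh-30 RNAi libraries. It had 18.7, 19.9 and 21.1 RPKM there, 25.9, 25.1 and 28.9 RPKM with luc, 31.4, 31.7 and 30.5 RPKM with atg-2 RNAi and 32.4, 31.2 and 31.7 RPKM with atg-18 RNAi. The difference from luc missed the threshold (limma adjusted p = 0.208), and those from atg-2 and atg-18 RNAi passed (adjusted p = 0.00198 and 0.000989). Among 43 tested genes of the RNAi machinery, limma called 0 against luc, 0 higher and 2 lower at an unadjusted p under 0.05.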
